A study of Homo sapiens with 6 samples.

Results

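The genes described are 10 matrix genes, chosen by name from the gene symbols of a table of 60612 genes: FN1, FBN1, COL4A1, COL4A2, COL18A1, LAMA5, LAMB1, LAMC1, AGRN and HSPG2. All 10 had at least 1 count in the 6 libraries, and 8 had counts high enough to be tested; COL4A1 and COL4A2 did not. RNA came from HepG2, a human liver cancer cell line labelled as wild type in genotype, grown in DMEM with serum and infected with lentivirus. In 3 libraries the virus carried sh-circPRKAA1, a short hairpin RNA against circPRKAA1 (a circular RNA made from PRKAA1), and in the other 3 it carried sh-ctrl, a control hairpin. The comparison asks what a knockdown of circPRKAA1 does to gene expression. The labels give no time after infection and do not tell separate cultures from repeat libraries. The p-values therefore rest on variation among 3 libraries a group, and this may be technical.

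The extracellular matrix is the protein network that cells secrete and hold on to. Fibronectin and fibrillin form fibrils between cells. The basement membrane is a thin sheet under epithelia and around vessels, in which laminin trimers of 1 alpha, 1 beta and 1 gamma chain and a network of collagen IV trimers are linked by nidogen and by the heparan sulfate proteoglycans perlecan, agrin and collagen XVIII. Cells bind these proteins mainly through integrins and dystroglycan. In the liver, hepatocytes make most of the fibronectin of plasma, and the hepatocyte surface faces a loose matrix with no continuous basement membrane.

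Levels are given as CPM, counts set to a common library total after TMM scaling, which corrects totals for differences in RNA composition, and as FPKM, that CPM per kilobase of exon. The libraries held 16348435 to 17549690 counts with sh-circPRKAA1 and 16284262 to 20282496 with sh-ctrl. Log2 levels correlated at 0.993 within the sh-circPRKAA1 group, at 0.988 to 0.992 within the sh-ctrl group and at 0.931 to 0.951 between groups, over all tested genes. The mean GC content of counted genes was 48.79 to 49.03% in sh-circPRKAA1 libraries and 49.91 to 50.74% in sh-ctrl libraries, and mitochondrial genes took 10.06 to 11.14% of counts with sh-circPRKAA1 and 9.44 to 9.8% with sh-ctrl. No row of the table names a circular RNA, so the knockdown itself was not checked. The host gene PRKAA1 stood at 82.4, 76.0 and 80.6 CPM in sh-circPRKAA1 libraries and at 31.8, 48.8 and 45.4 CPM in sh-ctrl libraries, higher with sh-circPRKAA1 by 0.92 on the log2 scale and by 0.22 with offsets for GC content and length, and this does not check the circle. The labels call the cells epithelial in one field and mesenchymal in another. The hepatocyte genes ALB and SERPINA1 averaged 6797.6 and 6899.0 CPM with sh-circPRKAA1 and 6029.1 and 6276.4 CPM with sh-ctrl. Other secreted hepatocyte genes went both ways. Log2 changes were -1.1 for APOA1, -0.33 for AFP, -0.48 for TTR, 0.66 for APOB and 0.1 for TF. The summed level of 7 mesenchymal genes was 115.0 to 132.2 CPM with sh-circPRKAA1 and 109.6 to 123.7 CPM with sh-ctrl. Among these CDH2, N-cadherin, had 1706 to 1955 counts with sh-circPRKAA1 and 1506 to 2170 with sh-ctrl, and VIM, vimentin, had 1 to 2 counts with sh-circPRKAA1 and 7 to 8 with sh-ctrl. HNF4A, a transcription factor that defines hepatocytes, averaged 150.4 ± 6.45 CPM with sh-circPRKAA1 and 423.2 ± 19.3 CPM with sh-ctrl (SD, n = 3 each), a log2 change of -1.49 (edgeR adjusted p = 9.88e-11).

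Sequence is shown for the genes whose levels carry the results below and for the collagen IV pair. Each run is the 250 bases before the start of the gene as RefSeq places it on GRCh38.p14, written 5′ to 3′ on the gene's own strand, with matches to 5 motifs in capitals on either strand. The cAMP response element was searched as TGACGTCA. For AP-1 the letters were TGANTCA. A GC box was read as GGGCGG. The TEAD motif was searched as GGAATG. The CCAAT box was searched by its own letters. FN1 is on the minus strand at chr2:215436069-215436318, HSPG2 on the minus strand at chr1:21937311-21937560, LAMB1 on the minus strand at chr7:108003162-108003411 and LAMC1 on the plus strand at chr1:183023170-183023419. COL4A1 and COL4A2 lie head to head, and the 126 bases between their starts, which are 127 bases apart, are given on the plus strand at chr13:110307158-110307283.
FN1: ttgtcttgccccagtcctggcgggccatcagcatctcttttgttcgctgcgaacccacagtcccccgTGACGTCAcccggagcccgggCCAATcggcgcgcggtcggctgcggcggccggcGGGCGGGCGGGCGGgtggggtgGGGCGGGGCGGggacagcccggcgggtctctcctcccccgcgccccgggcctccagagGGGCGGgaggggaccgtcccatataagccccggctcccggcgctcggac
HSPG2: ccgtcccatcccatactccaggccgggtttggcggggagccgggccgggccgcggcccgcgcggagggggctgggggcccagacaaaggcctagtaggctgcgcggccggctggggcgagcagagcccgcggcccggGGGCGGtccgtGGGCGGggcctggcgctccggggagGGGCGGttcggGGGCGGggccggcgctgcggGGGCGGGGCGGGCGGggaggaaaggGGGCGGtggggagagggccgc
LAMB1: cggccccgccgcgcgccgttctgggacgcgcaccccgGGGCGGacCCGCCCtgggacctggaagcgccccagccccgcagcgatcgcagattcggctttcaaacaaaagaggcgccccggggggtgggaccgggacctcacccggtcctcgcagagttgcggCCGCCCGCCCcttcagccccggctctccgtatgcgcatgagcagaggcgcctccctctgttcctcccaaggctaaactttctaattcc
LAMC1: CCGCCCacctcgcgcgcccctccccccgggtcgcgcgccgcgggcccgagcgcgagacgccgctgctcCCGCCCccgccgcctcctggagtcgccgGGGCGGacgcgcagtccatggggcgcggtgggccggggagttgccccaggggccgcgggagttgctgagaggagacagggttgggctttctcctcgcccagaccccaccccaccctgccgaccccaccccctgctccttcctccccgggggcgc
COL4A1-COL4A2: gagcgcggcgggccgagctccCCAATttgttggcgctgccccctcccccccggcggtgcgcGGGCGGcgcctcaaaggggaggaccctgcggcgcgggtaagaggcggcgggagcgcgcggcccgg

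RefSeq's table held 10 such windows for 9 of the 10 genes, COL18A1 having 2, and AGRN none. A GC box was present in 9 of the 10 windows, all but that of FBN1, against 42.6% of all 35116 windows of this length. The 10 windows are rich in GC, at percentiles 70.7 to 99.9 of all windows, and those of COL4A1 and COL4A2 overlap. The part of GC content in the GC box matches was not tested. The cAMP response element was found only in FN1, 183 bases before its start, and in 1.65% of all windows. Its CCAAT box lies at 162 bases, and 6 GC boxes, some of them overlapping, lie nearer to the start. The window of HSPG2 was 82.8% GC, with 8 GC boxes. Among the 10 windows a CCAAT box was found in those of FN1, COL4A1 and COL4A2, and in 32.0% of all windows; the 2 collagen genes share theirs, between their starts. TEAD letters were found in FBN1 and in 11.9% of windows, and AP-1 letters in 0 of the 10 and in 6.57%. A match is a description of the letters and not of a bound site.

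FN1, FBN1, HSPG2, LAMB1 and LAMC1 were higher in sh-circPRKAA1 libraries, AGRN was lower, and COL18A1 and LAMA5 did not pass. Tests are edgeR quasi-likelihood tests with Benjamini-Hochberg adjustment over 14990 genes at a threshold of 0.05, and log2 changes are sh-circPRKAA1 over sh-ctrl. The 5 higher of 8 tested stand beside 36.1% of all tested genes called higher, and the 1 lower beside 32.4% called lower. Their median log2 change was 0.72, and that of all tested genes was 0.05. No value of a sh-circPRKAA1 library overlapped one of a sh-ctrl library for 5 genes above and 1 gene below, beside 38.0% above and 34.1% below among all tested genes. In bulk RNA, fewer cells with a transcript and less of it per cell cannot be told apart.

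**Figure D1:**
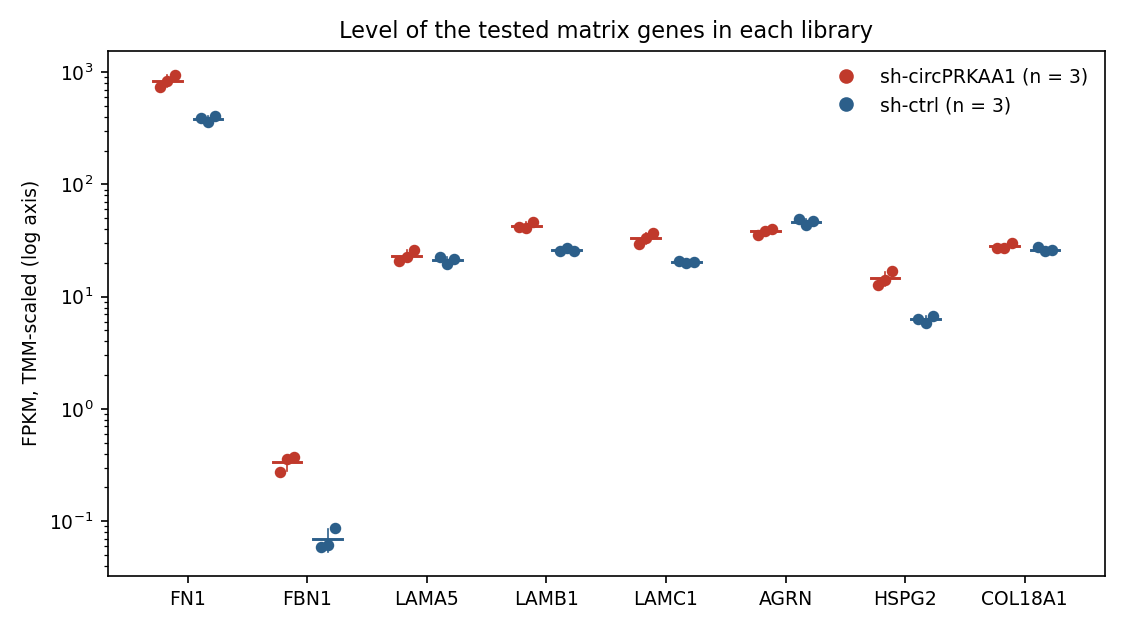
The level of each tested matrix gene in each library, as TMM-scaled FPKM on a log axis, with sh-circPRKAA1 (red) left of sh-ctrl (blue). Points are libraries, horizontal lines means and vertical lines SD (n = 3 each); FN1 lies far above the rest, FBN1 far below, and the groups do not overlap for FN1, FBN1, LAMB1, LAMC1, HSPG2 and AGRN.

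Fibronectin, the fibril protein that integrins bind, dominated these genes. FN1 (ENSG00000115414, GRCh38 chromosome 2, 215360440 to 215436073, minus strand) had 12687, 14458 and 16413 CPM in sh-circPRKAA1 libraries, against 6748, 6253 and 6953 CPM in sh-ctrl libraries. Every sh-circPRKAA1 library was above every sh-ctrl library. The difference was 2.18-fold, or 1.13 on a log2 scale (SE 0.09, adjusted p = 3.07e-08 by edgeR). FN1 took 1.37, 1.52 and 1.78% of all counts in the sh-circPRKAA1 libraries and 0.62, 0.592 and 0.65% in the sh-ctrl libraries. Among nuclear genes it ranked first in counts in each sh-circPRKAA1 library, and 3, 4 and 3 in the sh-ctrl libraries. Of the counts of the 10 genes together, FN1 made up 88.0 to 88.9% with sh-circPRKAA1 and 81.0 to 81.9% with sh-ctrl.

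The size of the FN1 difference depended on how GC content and length were treated. With offsets per library for GC content of the longest transcript and exonic length, its log2 change was 0.55 (SE 0.08, edgeR adjusted p = 2.54e-06). The longest FN1 transcript in GENCODE 29 is a retained intron with 42.2% GC, whereas its longest coding transcript, of 8905 bases, has 50.2% GC. With offsets taken from the longest coding transcript, an alternative chosen after seeing the data, the log2 change was 0.95 (SE 0.06, edgeR adjusted p = 2.03e-12). FN1 passed as higher in all 21 alternatives, between 0.55 and 1.42.

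FBN1 encodes fibrillin-1, the backbone of microfibrils, and is the gene of Marfan syndrome. It was scarce: FBN1 (ENSG00000166147, chromosome 15, 48408313 to 48645721) had 81, 106 and 105 counts in sh-circPRKAA1 libraries, against 14, 19 and 25 counts in sh-ctrl libraries. In TMM-scaled values these were 4.4, 5.74 and 5.94 CPM with sh-circPRKAA1 and 0.936, 0.989 and 1.4 CPM with sh-ctrl. The groups did not overlap, and the log2 change of 2.26 (SE 0.23, edgeR adjusted p = 3.27e-07) was the largest of the 8 tested genes, at a level of 0.334 ± 0.0522 FPKM with sh-circPRKAA1 and 0.0691 ± 0.0158 FPKM with sh-ctrl (SD, n = 3 each). On the log2(FPKM + 1) scale, which understates changes of scarce genes, limma gave 0.35.

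Of the laminin chains, LAMA5, LAMB1, LAMB2 and LAMC1 were the abundant ones. LAMB1, the beta-1 chain (ENSG00000091136, chromosome 7, 107923799 to 108003187), had 337.0, 330.0 and 373.9 CPM in sh-circPRKAA1 libraries, against 205.8, 217.2 and 207.7 CPM in sh-ctrl libraries. LAMC1, the gamma-1 chain found in most laminins (ENSG00000135862, chromosome 1, 183023420 to 183145592), had 251.4, 280.4 and 314.1 CPM with sh-circPRKAA1, against 175.5, 169.1 and 171.9 CPM with sh-ctrl. For both chains all sh-circPRKAA1 libraries were above all sh-ctrl libraries. The log2 change was 0.72 for LAMB1 (SE 0.07, edgeR adjusted p = 2.37e-07) and 0.71 for LAMC1 (SE 0.08, edgeR adjusted p = 1.04e-06). With the GC and length offsets LAMB1 was at 0.63 and LAMC1 at 0.59. LAMB1 shares 70 exonic bases with DLD on the other strand, whose counts were 1567 to 1645 with sh-circPRKAA1 and 782 to 1372 with sh-ctrl.

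LAMA5, the alpha-5 chain, which joins LAMB1 and LAMC1 in laminin-511 and LAMB2 and LAMC1 in laminin-521, did not pass. LAMA5 (ENSG00000130702, chromosome 20, 62307955 to 62367312) had 295.0, 322.0 and 372.9 CPM in sh-circPRKAA1 libraries, against 322.2, 280.5 and 309.1 CPM in sh-ctrl libraries. The groups overlapped, and the log2 change of 0.12 did not pass (SE 0.09, edgeR adjusted p = 0.232). It passed as higher with 6 of the 21 alternatives, among them TPM scaling (0.42) and the offsets (0.13, adjusted p = 0.0442 by edgeR), while the highest adjusted p of the 21 was 0.878. LAMA5 shares 244 exonic bases with ADRM1 on the other strand, whose counts were 2550 to 2832 with sh-circPRKAA1 and 4655 to 4930 with sh-ctrl, and the strand setting of the counting is not given in the sources used here.

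Ratios within a library need no scaling between libraries, but they do not remove a trend by GC content. LAMA5 has 66.4% GC, LAMC1 48.7% and LAMB1 49.5%. The median log2 change of all genes was -0.44 above 65% GC and 0.02 for 45 to 50% GC. The part of GC content in the ratios below was not tested. The ratio of LAMA5 to LAMC1 in FPKM was 0.694, 0.679 and 0.702 in sh-circPRKAA1 libraries, against 1.08, 0.981 and 1.06 in sh-ctrl libraries. All 3 sh-circPRKAA1 ratios were below all 3 sh-ctrl ratios, a difference of -0.59 in mean log2 ratio (two-sided exact permutation p = 0.1, the smallest that 3 against 3 allow). The ratio of LAMB1 to LAMC1 was 1.4, 1.23 and 1.25 with sh-circPRKAA1, against 1.23, 1.34 and 1.26 with sh-ctrl. These overlapped, with a difference of 0.02 in mean log2 ratio (two-sided exact permutation p = 0.8). Of the FPKM of the 5 alpha chains, LAMA5 held 98.5 to 98.9% with sh-circPRKAA1 and 95.7 to 96.2% with sh-ctrl. LAMC1 held 98.7 to 99.2% of the gamma chains with sh-circPRKAA1 and 97.5 to 98.1% with sh-ctrl. LAMB1 shared the beta chains with LAMB2, at 54.3 to 57.9% with sh-circPRKAA1 and 57.7 to 60.9% with sh-ctrl.

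**Figure D2:**
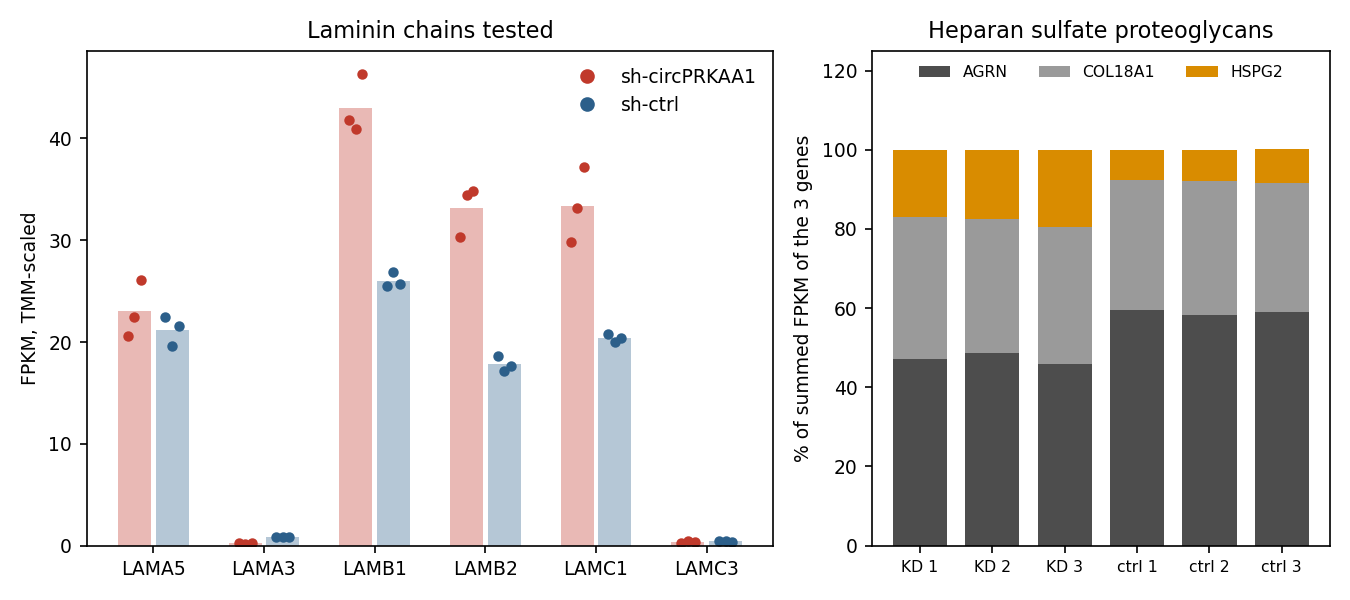
Left, TMM-scaled FPKM of the 6 tested laminin chains, with bars for means and points for libraries (n = 3 each), sh-circPRKAA1 left of sh-ctrl. Right, the share of AGRN, COL18A1 and HSPG2 in their summed FPKM in each library (KD, sh-circPRKAA1; ctrl, sh-ctrl); HSPG2 takes 16.9 to 19.5% with sh-circPRKAA1 and 7.57 to 8.39% with sh-ctrl.

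The 3 heparan sulfate proteoglycans of the basement membrane differed: HSPG2 rose, AGRN fell under TMM but not under TPM scaling or quantile normalization, and COL18A1 did not pass. HSPG2 encodes perlecan, the largest of them (ENSG00000142798, chromosome 1, 21822244 to 21937310). It had 232.5, 253.9 and 306.3 CPM in sh-circPRKAA1 libraries, against 114.1, 106.0 and 121.3 CPM in sh-ctrl libraries. The groups did not overlap, and the difference was 2.32-fold, or 1.22 on a log2 scale (SE 0.09, adjusted p = 1.57e-08 by edgeR). The offsets for GC content and length left it at 1.16. It shares 2121 exonic bases with LDLRAD2 on the other strand, a gene with 3 to 19 counts in sh-circPRKAA1 libraries and 2 to 6 counts in sh-ctrl libraries.

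AGRN encodes agrin, which clusters acetylcholine receptors at the nerve-muscle junction and is also made in the liver. AGRN (ENSG00000188157, chromosome 1, 1020120 to 1056118) had 384.0, 417.9 and 428.9 CPM in sh-circPRKAA1 libraries, against 531.9, 469.5 and 507.1 CPM in sh-ctrl libraries. Every sh-circPRKAA1 library was below every sh-ctrl library. The log2 change of -0.29 (SE 0.07, edgeR adjusted p = 0.00209) was -0.21 with the offsets, but 0.00 with TPM scaling (edgeR adjusted p = 0.973), 0.04 with quantile normalization (limma adjusted p = 0.542) and -0.09 with library totals (edgeR adjusted p = 0.206). It passed in 16 of 21 alternatives.

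COL18A1 encodes collagen XVIII, whose tail is cut off as endostatin (ENSG00000182871, chromosome 21, 45405165 to 45513720). It had 231.2, 228.5 and 253.0 CPM in sh-circPRKAA1 libraries, against 232.7, 215.1 and 219.9 CPM in sh-ctrl libraries. The groups overlapped, and the log2 change of 0.09 did not pass (SE 0.07, edgeR adjusted p = 0.247). It passed as higher in 8 of 21 alternatives, with 0.23 under the offsets (adjusted p = 0.000449 by edgeR), while the highest adjusted p of the 21 was 0.811. COL18A1 shares 1401 exonic bases with SLC19A1 on the other strand, whose counts were 607 to 688 with sh-circPRKAA1 and 1302 to 1429 with sh-ctrl.

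In shares of the 3 proteoglycans' summed FPKM, AGRN held 46.0 to 48.6% with sh-circPRKAA1 and 58.3 to 59.4% with sh-ctrl, and COL18A1 held 33.8 to 36.0% with sh-circPRKAA1 and 32.6 to 33.9% with sh-ctrl. The ratio of HSPG2 to AGRN in FPKM, picked after the values were seen and so given with no test, was 0.36, 0.361 and 0.424 in sh-circPRKAA1 libraries, against 0.127, 0.134 and 0.142 in sh-ctrl libraries. HSPG2 was thus the least abundant of the 3 in all 6 libraries.

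Collagen IV transcripts were at or near 0. COL4A1 and COL4A2 encode the alpha-1 and alpha-2 chains of the main collagen IV trimer, and lie at chromosome 13, 110148963 to 110307157 and 110305812 to 110513209. COL4A1 (ENSG00000187498) had 0, 0 and 0 counts in sh-circPRKAA1 libraries, against 0, 0 and 1 in sh-ctrl libraries. In CPM of the library totals without TMM scaling, a count of 0 allows up to 0.171 to 0.184 in sh-circPRKAA1 libraries. In sh-ctrl libraries it allows up to 0.148 to 0.184, for counting error only. COL4A2 (ENSG00000134871) had 10, 7 and 4 counts with sh-circPRKAA1, against 2, 5 and 3 with sh-ctrl. The groups overlapped, and a fit with no filter on low counts gave COL4A2 a log2 change of 0.95 that did not pass (edgeR adjusted p = 0.345). Over all 6 collagen IV chains there were 45, 25 and 26 counts in sh-circPRKAA1 libraries and 7, 12 and 12 in sh-ctrl libraries. Among these COL4A5 had 15, 11 and 15 counts with sh-circPRKAA1, against 2, 5 and 4 with sh-ctrl. COL4A5 was called higher (log2 change 1.8, edgeR adjusted p = 0.0028), but not with quantile normalization (limma adjusted p = 0.123). The ratio of COL4A2 to COL4A1 could not be computed with COL4A1 at 0.

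Per kilobase of exon the order of levels in sh-circPRKAA1 libraries was FN1, LAMB1, AGRN, LAMC1, COL18A1, LAMA5, HSPG2, FBN1, COL4A2 and COL4A1. In sh-ctrl libraries it was FN1, AGRN, COL18A1, LAMB1, LAMA5, LAMC1, HSPG2, FBN1, COL4A2 and COL4A1. FN1 averaged 843.4 ± 108.3 FPKM with sh-circPRKAA1 and 386.4 ± 20.9 FPKM with sh-ctrl, and next came LAMB1 at 43.0 ± 2.92 FPKM with sh-circPRKAA1 and AGRN at 46.7 ± 2.92 FPKM with sh-ctrl (SD, n = 3 each). Neighbours whose ranges over libraries overlapped were AGRN with LAMC1 and LAMC1 with COL18A1 in sh-circPRKAA1 libraries, and COL18A1 with LAMB1 and LAMA5 with LAMC1 in sh-ctrl libraries. FN1's exonic length of 17216 bases counts its retained introns too, which lowers its FPKM.

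Replicate 3 of the sh-circPRKAA1 group held the highest CPM for all 8 tested genes, beside 32.5% of all tested genes and 49.6% of those with over 8000 exonic bases. In the sh-ctrl group the highest value lay in replicate 1 for 4 genes, replicate 2 for 1 and replicate 3 for 3. Without sh-circPRKAA1 replicate 3, the same counts of 5 higher and 1 lower were obtained.

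As a description of likeness, genes were ranked by the root mean square distance between their log2 CPM, each relative to its sh-ctrl mean, over the 6 libraries. The rule had been set for COL4A1, which could not be used, and was applied to FN1, LAMB1, LAMC1 and HSPG2 after the data were seen. HSPG2 ranked 1 of 14989 genes by nearness to FN1, at a distance of 0.0687. LAMC1 ranked 55 by nearness to LAMB1, at a distance of 0.0723.

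**Figure D3:**
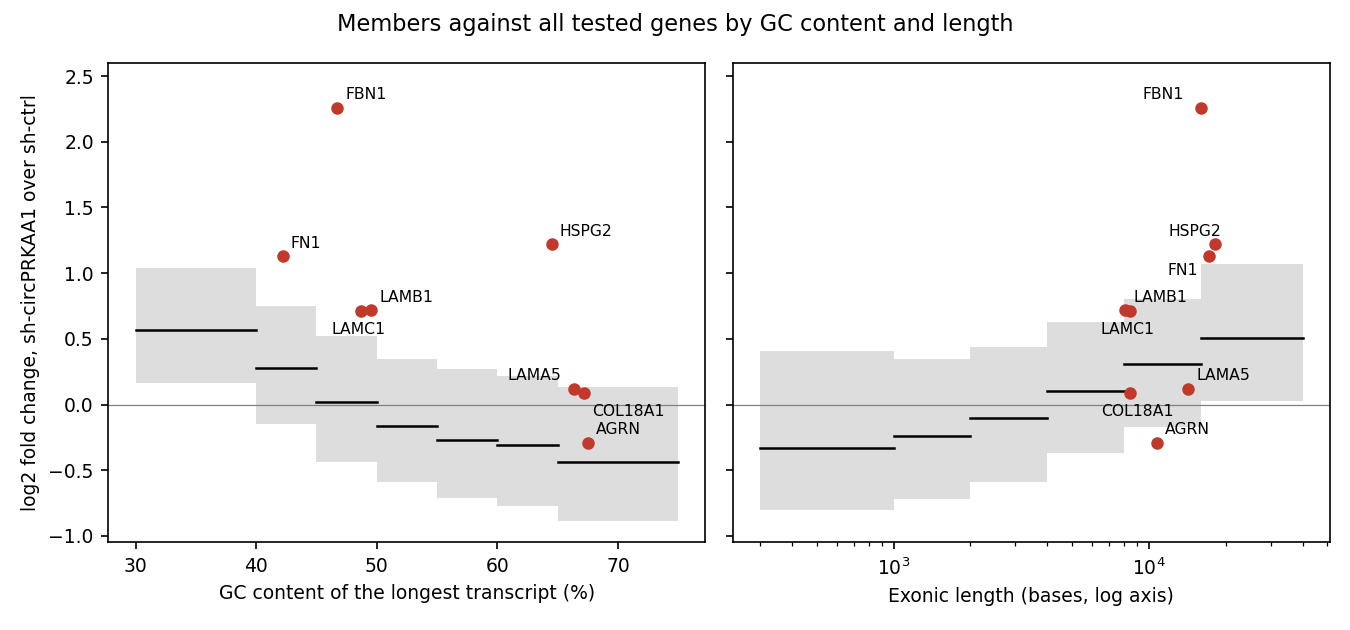
Log2 fold change of the 8 tested members (red points) against GC content of the longest transcript (left) and exonic length on a log axis (right), with the median (black line) and quartiles (grey) of all tested genes in each bin; the outermost bins are drawn to fixed limits. The bin medians lie at 0.57 for the lowest GC bin and -0.44 for the highest, and FN1, HSPG2 and FBN1 lie above the upper quartile in both panels.

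Fold changes of all genes went with GC content and length. The median log2 change was 0.57 for genes of up to 40% GC and -0.44 for genes above 65%, and was -0.33 for genes of up to 1000 exonic bases and 0.51 for genes above 16000. The members are long, at 8072 to 19271 bases. The median of all genes was 0.31 for 8000 to 16000 bases, which holds LAMA5, LAMB1, LAMC1, AGRN and COL18A1, and FN1, FBN1 and HSPG2 lie above 16000. FN1, at 42.2% GC, lies in a bin with a median of 0.28. LAMB1, LAMC1 and FBN1 lie at 49.5, 48.7 and 46.7% GC, where the median of all genes was 0.02. HSPG2, at 64.5% GC, was in a bin with a median of -0.31, and AGRN, COL18A1 and LAMA5, at 67.5, 67.2 and 66.4% GC, in one with a median of -0.44. With the GC and length offsets 7 of the 8 were called higher and 1 lower, beside 32.0% called higher and 37.5% called lower of 14863 genes.

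**Figure D4:**
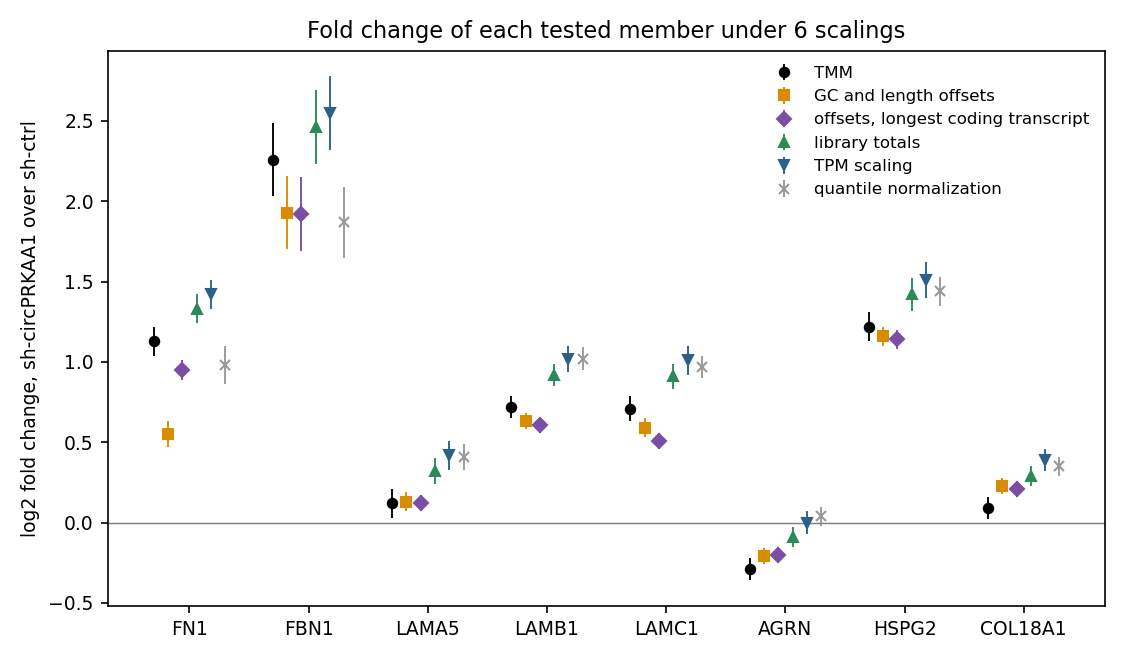
Log2 fold change (points) with its SE (bars) of each tested member under 6 scalings, sh-circPRKAA1 over sh-ctrl. FN1, FBN1, LAMB1, LAMC1 and HSPG2 lie above 0 under each of the 6, and AGRN lies between -0.29 and 0.04.

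TPM scaling and library totals moved all tested members up, while quantile normalization moved FN1 and FBN1 down and the others up. TPM scaling shifted the median of all genes by 0.29 and library totals by 0.2 on the log2 scale, and calls were higher in 71.6% and 65.7% of cases, against 52.7% under TMM. Under either of them, 7 of the matrix genes were called higher and 0 lower, and the same held with quantile normalization, which shifted the median by -0.07, and with limma on FPKM. Of all 14990 tested genes, 7441 were called higher and 2956 lower with TPM scaling, and 6821 and 3560 with library totals. With quantile normalization these counts were 4889 and 5179, and with limma on log2(FPKM + 1) 6734 and 3604. FN1, FBN1, LAMB1, LAMC1 and HSPG2 passed as higher in all 21 alternatives.

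Other matrix genes were taken from 6 lists by role. Of 22 other basement membrane components 9 were tested, and 3 were higher, 3 lower and 3 did not pass, beside 36.1% higher and 32.4% lower among all tested genes. Their median was -0.04, beside 0.05 for all tested genes. LAMA3, the alpha chain of laminin-332, fell to 3.32 ± 0.251 CPM with sh-circPRKAA1, against 12.8 ± 0.0286 CPM with sh-ctrl (SD, n = 3 each; log2 change -1.94, edgeR adjusted p = 6.07e-09). LAMB2, the beta-2 chain, rose to 227.6 ± 17.2 CPM, against 122.3 ± 5.01 CPM with sh-ctrl (log2 change 0.90, edgeR adjusted p = 4.13e-08). NID1, nidogen-1, which bridges laminin and collagen IV, fell to 181.4 ± 16.1 CPM, against 273.8 ± 5.4 CPM with sh-ctrl (log2 change -0.59, edgeR adjusted p = 3.49e-06). TINAGL1, a secreted matrix protein, fell by 0.63 on the log2 scale. With TPM scaling NID1 was at -0.30 and TINAGL1 at -0.33.

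Of 36 interstitial collagens, elastic fibre and other matrix proteins 21 were tested, with 12 higher, 4 lower and 5 that did not pass, beside 36.1% higher and 32.4% lower among all tested genes. Their median was 0.89. With TPM scaling 15 were higher and 1 lower, beside 7441 higher and 2956 lower of all 14990 tested genes. Quantile normalization gave 11 higher and 2 lower, beside 4889 and 5179 of all tested genes. MATN3, a matrilin of cartilage matrix, stood at 256.2 ± 9.32 CPM with sh-circPRKAA1 and 66.8 ± 2.61 CPM with sh-ctrl (SD, n = 3 each; log2 change 1.94, edgeR adjusted p = 1.27e-11). VCAN, the chondroitin sulfate proteoglycan versican, rose by 1.35 on the log2 scale, and by 0.86 with the offsets. COL7A1, the anchoring fibril collagen, rose by 1.83, and EFEMP2, fibulin-4 of elastic fibres, by 0.92. The fibril collagens of fibroblasts were near 0, with 0 to 1 counts of COL1A1 in sh-circPRKAA1 libraries and 1 to 3 in sh-ctrl libraries.

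Of 26 matrix receptors 18 were tested, with 12 higher, 3 lower and 3 that did not pass, beside 36.1% higher and 32.4% lower among all tested genes, and a median of 0.87. ITGB1, the beta chain shared by most matrix integrins, stood at 753.3 ± 24.7 CPM with sh-circPRKAA1 and 304.3 ± 57.5 CPM with sh-ctrl (SD, n = 3 each; log2 change 1.31, edgeR adjusted p = 2.2e-08). ITGAV, the alpha-V chain that binds fibronectin and fibrillin, rose by 1.85 on the log2 scale, and the collagen-binding chains ITGA1 and ITGA2 by 2.36 and 1.77. With the offsets these 4 genes stood at 0.86, 1.25, 1.61 and 1.28. Some receptors of the members were picked after their values were seen. ITGA5, the alpha chain of the classical fibronectin receptor, was not tested, with 3 to 8 counts in sh-circPRKAA1 libraries and 2 to 4 in sh-ctrl libraries. DAG1, dystroglycan, which binds laminin, agrin and perlecan, fell by 0.43 in log2 (adjusted p = 5.29e-05 by edgeR), and stood at -0.14 with TPM scaling (edgeR adjusted p = 0.0664). LRP4, the agrin receptor of muscle, fell by 0.56 (edgeR adjusted p = 6.92e-05), and stood at -0.26 with TPM scaling (edgeR adjusted p = 0.0451). The remaining tested integrin chains did not fall. ITGA3, ITGA6, ITGB4 and ITGB5 were called higher, at log2 changes of 2.28, 0.85, 0.30 and 0.90, and ITGA7 did not pass. ITGA3 was scarce, with 47 to 57 counts in sh-circPRKAA1 libraries and 7 to 15 in sh-ctrl libraries.

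Of 22 genes of collagen folding, modification and crosslinking 19 were tested, with 7 higher, 5 lower and 7 that did not pass, beside 36.1% higher and 32.4% lower among all tested genes. Their median was 0.07, and with TPM scaling 12 were higher and 4 lower, beside 7441 and 2956 of all 14990 tested genes. TGM2, a transglutaminase that crosslinks fibronectin among others, rose to 126.9 ± 4.86 CPM with sh-circPRKAA1, against 38.8 ± 0.922 CPM with sh-ctrl (SD, n = 3 each; log2 change 1.71, edgeR adjusted p = 5.08e-11). LOXL4, a lysyl oxidase, rose by 0.99 on the log2 scale, P4HA1, a collagen prolyl hydroxylase subunit, by 1.02, and MIA3, needed for export of large cargo from the endoplasmic reticulum, by 0.90, or 0.40 with the offsets. Of 20 genes of heparan sulfate synthesis and editing, which build the chains of perlecan and agrin, 15 were tested, with 7 higher, 6 lower and 2 that did not pass, beside the same 36.1% higher and 32.4% lower, and a median of 0.17. With TPM scaling 8 were higher and 3 lower, beside the same 7441 and 2956 of 14990 genes. HS6ST1 and B3GALT6 fell by 0.67 and 0.78, and stood at -0.37 and -0.49 with TPM scaling. XYLT2, which starts the chains, rose by 0.83, and HS2ST1 rose by 0.91, or 0.29 with the offsets.

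Of 28 matrix proteases and their inhibitors 16 were tested, with 11 higher, 3 lower and 2 that did not pass, beside 36.1% higher and 32.4% lower among all tested genes. Their median was 0.69, and with TPM scaling or library totals 12 were higher and 1 lower. Of all 14990 tested genes, 7441 were higher and 2956 lower with TPM scaling, and 6821 and 3560 with library totals. TIMP1, an inhibitor of metalloproteinases, stood at 106.7 ± 12.6 CPM with sh-circPRKAA1 and 32.0 ± 2.35 CPM with sh-ctrl (SD, n = 3 each; log2 change 1.74, edgeR adjusted p = 4.68e-10). TIMP2 rose by 1.39 on the log2 scale and the membrane protease ADAM9 by 1.30, or 0.79 with the offsets, while ADAM15 fell by 1.25. The secreted collagenases MMP1 and MMP13, also picked after their values were seen, had at most 2 counts in any library.

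**Figure D5:**
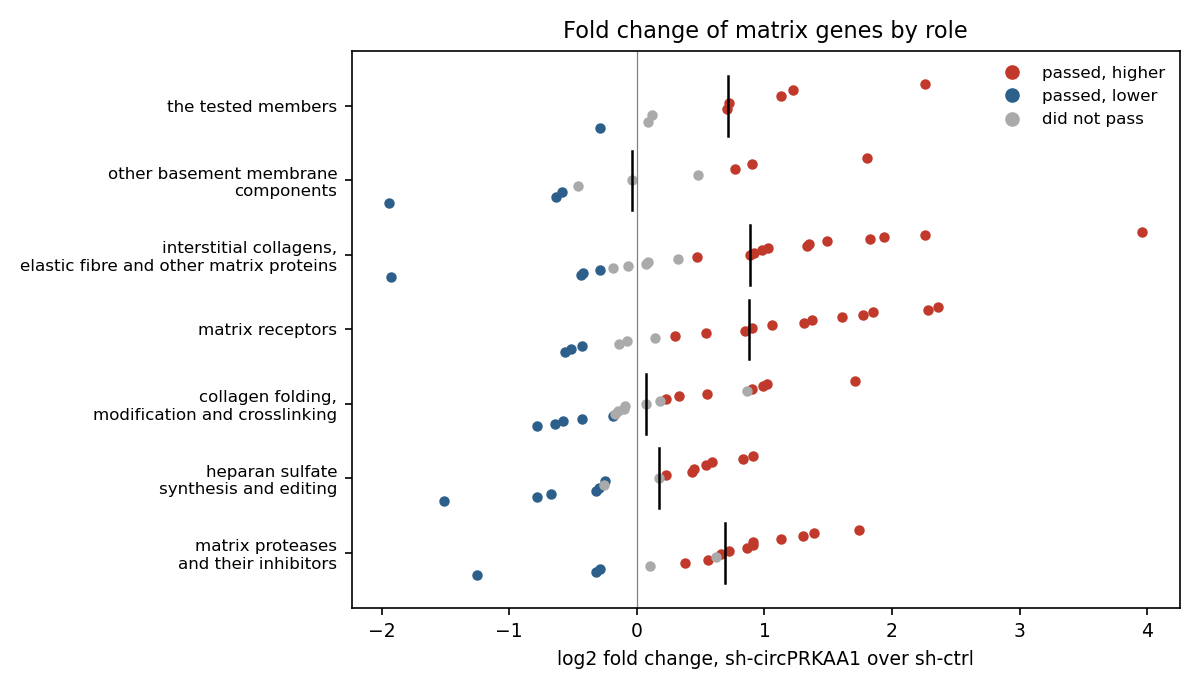
Log2 fold change of each tested gene of the members and of the 6 lists, sh-circPRKAA1 over sh-ctrl; red and blue points passed the edgeR test as higher and lower, grey points did not pass, and black lines are medians. Medians lie between -0.04 and 0.89, and each list holds genes that passed in both directions.

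Defining markers of other cells were mostly at or near 0, while some listed genes were not. Of 9 fibroblast and stellate cell genes 2 were tested, and the summed level of the list was 61.7 to 67.5 CPM with sh-circPRKAA1 and 78.8 to 92.6 CPM with sh-ctrl, nearly all from ACTA2. Both tested genes were called lower, ACTA2 at -0.4 and PDGFRB at -0.65 on the log2 scale, and neither passed with TPM scaling. PDGFRB had 45 counts in each sh-circPRKAA1 library and 55 to 79 in sh-ctrl libraries. COL1A2, DCN, LUM and THY1 had at most 2 counts in any library, and COL3A1 and PDGFRA at most 6. The endothelial genes KDR, TEK and EMCN had 0 counts in all 6 libraries. The summed endothelial list was 4.75 to 5.48 CPM with sh-circPRKAA1 and 4.81 to 7.44 CPM with sh-ctrl. Most of it came from PECAM1, with 77 to 85 counts with sh-circPRKAA1 and 66 to 123 with sh-ctrl. PTPRC, which marks leukocytes, had 2 to 7 counts with sh-circPRKAA1 and 1 to 2 with sh-ctrl, and the summed leukocyte list, nearly all LYZ, was 605.6 to 632.2 CPM with sh-circPRKAA1 and 769.4 to 845.5 CPM with sh-ctrl. In that list CD14 was called higher, at a log2 change of 1.19, and LYZ lower, at -0.38. Of the 7 mesenchymal genes 3 were tested, with 1 higher, 1 lower and a median of -0.10. ZEB1, a repressor of epithelial genes, averaged 19.1 ± 1.06 CPM with sh-circPRKAA1 and 6.56 ± 1.11 CPM with sh-ctrl (SD, n = 3 each), a log2 change of 1.53, or 0.93 with the offsets. S100A4 was at -0.51 (edgeR adjusted p = 0.0406), or -0.11 with the offsets, and CDH2 at -0.10 did not pass (edgeR adjusted p = 0.272). The summed epithelial list was 2450.2 to 2670.2 CPM with sh-circPRKAA1 and 3165.9 to 3671.4 CPM with sh-ctrl, with 1 of its 5 genes higher and 2 lower. The hepatocyte list had 1 of 8 genes higher and 4 lower. The counts of the fibroblast, mesenchymal, epithelial and hepatocyte lists under TMM stand beside 36.1% higher and 32.4% lower among all tested genes. With TPM scaling the hepatocyte list had 4 higher and 2 lower, and the epithelial list 2 higher and 1 lower. The mesenchymal list then had 1 higher and 0 lower. That scaling called 7441 of all 14990 tested genes higher and 2956 lower. The part of these lists in the results was not tested.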

How the data were processed

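Libraries of 6 HepG2 RNA samples were prepared with the SMARTER mRNA kit, per the labels' protocols. The authors deposited whole-number counts per gene, an exonic length per gene and FPKM, per the file headers. Which aligner, counter and strand setting were used is not given in the sources used here. Mouse builds (GRCm38, mm10) and hg18 appear in the submitters' processing notes. Identifiers were found in GENCODE 29 (GRCh38) for 96.3% of genes, and 99.98% of those overlapped its coordinates, so positions are given as GRCh38. The deposited FPKM equalled count per exonic length and library total within 0.0051 in the 5 numbered columns; 1 further column, with no replicate number, was not used.

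Groups follow the titles; for sh-circPRKAA1 the separate shRNA field instead counts up from circPRKAA1 to circPRKAA3. Library pairs within groups differed beyond sampling noise (chi-square over degrees of freedom 3.86 to 16.3). Depth was 16284262 to 20282496 counts a library.

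The filter was filterByExpr (count of 10, total of 15), the scaling TMM, and genes were tested with edgeR 4.0.16 (R 4.3.3). Levels are TMM-scaled CPM, and FPKM is that CPM per kilobase of exon. Offsets for GC content and length came from a smooth fit per library (mgcv 1.9.3). Alternatives included DESeq2 1.42.0, limma 3.58.1, other scalings and filters, a replicate block, and leaving out single libraries. Tested on simulated data of this comparison (14114 genes), edgeR found 73% of the 1.5-fold changes and 93% of the 2-fold changes and made 10 false calls. With a trend by GC content added to the simulation, it made 7772 false calls among 14099 genes without offsets and 15 among 13993 genes with them. That trend was linear in GC content and equal in the sh-circPRKAA1 libraries, a form the offsets can fit. Each simulation changed only 200 genes, with as many up as down. In the data 36.1% of tested genes were called higher and 32.4% lower, and scaling under such wide changes was not tested.

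The members and lists were chosen with earlier results of these data known. All members are named, and from each list the 4 genes of smallest p; others are named where stated. Only genes with enough counts for the filter were tested.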

Additional observations from a re-analysis of the deposited data

How the results depend on the processing

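The calls of FN1, FBN1, LAMB1, LAMC1 and HSPG2 kept their direction and passed in all 21 alternatives; COL18A1 and LAMA5 passed as higher in 8 and 6. The 1 member called lower, AGRN, became 0 members called lower with TPM scaling, library totals, quantile normalization and limma on log2(FPKM + 1) and log2(FPKM + 0.1); its log2 change was 0.00 with TPM scaling and 0.04 with quantile normalization, and the cause was not tested. Genes of the 6 lists called lower numbered 24 with TMM and 14 with TPM scaling. Of all 14990 tested genes, 4852 were called lower with TMM and 2956 with TPM scaling. Leaving out each library in turn gave 5 members called higher and 1 lower every time. List genes called higher then numbered 50 to 54, and those called lower 20 to 29. The difference in mean log2 ratio, sh-circPRKAA1 minus sh-ctrl, was -0.64 to -0.56 for LAMA5 to LAMC1. For LAMB1 to LAMC1 this difference was -0.04 to 0.05. Deviations from group means correlated at -0.149 to 0.041 between same-numbered libraries, and at -0.069 to 0.159 between other-numbered ones. With 3 libraries a group, these values cannot tell whether a number marks anything shared. With the replicate block 5 members were called higher and 1 lower, and 5217 of all genes higher and 4627 lower. Changes of COL4A1 and COL4A2 were not detectable at this depth.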
